A study of Mus musculus with 14 samples.

Results

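Poly(A) RNA of C2C12 cells was examined for 10 genes of the Notch pathway: the receptors Notch1, Notch2 and Notch3, the ligands Dll1 and Jag1, the Hes and Hey family genes Hes1, Hes6, Hey1 and Heyl, and the Notch inhibitor Numb. They were chosen by name, as the rows of the deposited table whose first annotation item is one of these symbols, and make up 10 of its 24016 genes. All 10 passed the filter on low values, a mean FPKM of at least 1 over the 8 libraries, which 14312 genes passed. C2C12 is an immortal mouse myoblast line that leaves the cell cycle and fuses into myotubes once growth medium is replaced by differentiation medium. Cells were transfected with control siRNA (siCtrl) or with a pool of siRNAs against Klf5 (siKlf5), and RNA was collected at the change of medium (day 0) and 1, 2 and 3 days later, so that each combination of siRNA and day has a single library. The study also holds 6 chromatin immunoprecipitation (ChIP-seq) samples, which were not analysed here. No condition has a replicate, so a difference between the siRNAs on a single day has no replicate error. Where a test is given, it compares the siRNAs over the 4 days or the days over both siRNAs, and its error combines the gene's own disagreement between the daily differences (3 degrees of freedom) with the spread that limma expects from other genes of similar level (7.91 degrees of freedom together). The errors and p-values thus rest largely on other genes.

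In Notch signalling, a Delta or Jagged ligand on one cell binds a Notch receptor on its neighbour, cleavage by an Adam protease and by gamma-secretase frees the intracellular part of the receptor, and this part joins Rbpj on DNA to switch on Hes and Hey genes, which encode repressors of the basic helix-loop-helix class. In muscle the pathway is known for holding satellite cells and myoblasts back from differentiation. Numb, an endocytic adaptor, lowers Notch activity, and Hes6 is an unusual family member that is known to antagonise Hes1 and to favour differentiation.

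The libraries held between 7850497 (siCtrl, day 1) and 20301506 reads (siCtrl, day 2), as recovered from the deposited values. Klf5 itself had FPKM values of 224, 381, 614 and 933 in siCtrl and 35.1, 160, 192 and 211 in siKlf5 cells on days 0, 1, 2 and 3. The cells carried the muscle markers of their label, with Myod1 between 398 and 557. Myog went from 479 to 2293 in siCtrl and from 328 to 1386 in siKlf5 cells between days 0 and 3. Its highest siKlf5 value was 1740, on day 2. Other differentiation markers differed less on day 3. Myh3, Ckm, Acta1 and Tnnt3 were then at 2790, 1094, 4150 and 3300 in siCtrl cells. In siKlf5 cells they were at 2685, 1096, 4351 and 3287. Tmem8c was at 1635 in siCtrl and 1255 in siKlf5 cells. Of 11 markers of endothelial, blood, fat, epithelial and neural cells, 9 stayed under 5 in each of the 8 libraries and Epcam was at 0 throughout. Cd68 reached 23.5 and Cdh1 38.1. The summed level of the 11 was between 16.8 (day 0) and 49.997 (day 3) in siCtrl and between 7.77 and 30.6 in siKlf5 libraries, and its part in the results was not tested.

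Promoter windows, from 250 bases before to 50 bases after a start site, were found in RefSeq (GRCm38.p6) for 7 of the 10 genes, 11 windows in all. Hes1, Hey1 and Heyl had no entry. The windows were searched on both strands for CAGCTG, the E-box form favoured by MyoD and myogenin, for CCNCNCCC, a form of the GC-rich box bound by Krüppel-like factors such as Klf5, for TGGGAA, the core of the Rbpj site, and for CACGTG, an E-box bound by Hey proteins. CAGCTG was present in 4 of the 11 windows, those of Jag1, Hes6 (both start sites) and Dll1 (1 of its 2), against 16.3% of all 32851 windows. CCNCNCCC was present in 8 of the 11, at least once in each of the 7 genes, against 49.5% of all windows. Neither TGGGAA (25.6% of all windows) nor CACGTG (7.15%) was found in any of the 11. The 4 windows with CAGCTG are shown because 3 of them belong to genes that rose during differentiation, and that of Notch3 because it belongs to the receptor that rose. They are written 5′ to 3′ on the strand of the gene, with CAGCTG and CCNCNCCC (or its reverse complement GGGNGNGG) in capitals. In the windows shown no CAGCTG overlapped a CCNCNCCC, whereas in Notch3 neighbouring CCNCNCCC matches overlapped each other and run together.
Hes6, upstream start site, chr1:91413989-91414288, minus strand: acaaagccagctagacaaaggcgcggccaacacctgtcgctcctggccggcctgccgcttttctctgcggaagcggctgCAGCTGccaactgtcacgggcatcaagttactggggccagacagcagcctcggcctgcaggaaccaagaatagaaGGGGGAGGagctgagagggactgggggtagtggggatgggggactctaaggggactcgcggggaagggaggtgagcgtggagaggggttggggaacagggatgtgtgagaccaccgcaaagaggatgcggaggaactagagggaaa
Hes6, downstream start site, chr1:91413173-91413472, minus strand: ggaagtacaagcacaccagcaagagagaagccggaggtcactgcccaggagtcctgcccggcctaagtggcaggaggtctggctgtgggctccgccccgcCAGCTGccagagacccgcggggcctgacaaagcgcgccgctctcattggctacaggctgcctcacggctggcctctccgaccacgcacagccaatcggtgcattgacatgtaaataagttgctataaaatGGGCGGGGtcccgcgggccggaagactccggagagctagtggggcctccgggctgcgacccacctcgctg
Dll1, upstream start site, chr17:15376883-15377182, minus strand: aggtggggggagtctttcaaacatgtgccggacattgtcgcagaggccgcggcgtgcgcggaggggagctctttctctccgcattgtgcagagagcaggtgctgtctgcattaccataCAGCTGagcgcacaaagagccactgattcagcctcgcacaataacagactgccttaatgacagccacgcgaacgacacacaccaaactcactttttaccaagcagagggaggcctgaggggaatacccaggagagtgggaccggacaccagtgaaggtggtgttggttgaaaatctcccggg
Jag1, chr2:137116471-137116770, minus strand: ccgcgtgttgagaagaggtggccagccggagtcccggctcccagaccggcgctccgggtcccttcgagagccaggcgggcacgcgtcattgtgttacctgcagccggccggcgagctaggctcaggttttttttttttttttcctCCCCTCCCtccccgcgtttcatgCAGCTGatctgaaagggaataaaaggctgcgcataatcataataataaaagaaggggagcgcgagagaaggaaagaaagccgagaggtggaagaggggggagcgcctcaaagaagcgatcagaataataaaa
Notch3, chr17:32166841-32167140, minus strand: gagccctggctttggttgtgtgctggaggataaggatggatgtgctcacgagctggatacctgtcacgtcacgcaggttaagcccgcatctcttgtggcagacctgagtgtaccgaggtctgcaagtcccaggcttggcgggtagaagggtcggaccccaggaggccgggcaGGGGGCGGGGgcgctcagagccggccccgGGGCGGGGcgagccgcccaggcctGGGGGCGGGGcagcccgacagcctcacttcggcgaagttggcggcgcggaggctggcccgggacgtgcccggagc
The CAGCTG lies 171 and 150 bases before the 2 start sites of Hes6, 132 bases before the upstream start site of Dll1 and 82 bases before that of Jag1. The downstream window of Dll1 held no CAGCTG. On mm9 (minus strand) the counted transcripts of Dll1 and Hes6 begin at 15512787 and 93309799. Their GENCODE spans begin further upstream, at 15513836 and 93310615. Which of the windows belongs to each counted transcript was not tested. The Notch3 window holds 5 overlapping or separate matches of CCNCNCCC and no CAGCTG. A match is a description of these letters, and binding of MyoD or Klf5 to these windows was not analysed here.

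Levels were compared between genes as FPKM, which is per length of exon. The values were scaled by the authors to a matrix total of 10000000 per library and are therefore larger than FPKM in the usual sense. Hes6 was the highest of the 10 genes, with a mean of 484 ± 179 (SD over the 8 libraries of all days), and Jag1 the lowest, with 15.3 ± 4.24. Between them came, in order of their means, Notch3 (336), Hes1 (183), Heyl (156), Notch2 (143), Hey1 (93.8), Notch1 (82.4), Numb (56.8) and Dll1 (39.1). The ranges over the 8 libraries overlapped between all neighbours in this order except Dll1 and Jag1. Within a library Notch3 stood above Hes1, Notch2 above Hey1, Notch1 above Numb and Dll1 above Jag1 in 8 of 8. Hes6 stood above Notch3 in 7 of 8, Hey1 above Notch1 in 7 of 8, Heyl above Notch2 in 6 of 8, Numb above Dll1 in 6 of 8, and Hes1 above Heyl in 5 of 8.

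**Figure D1:**
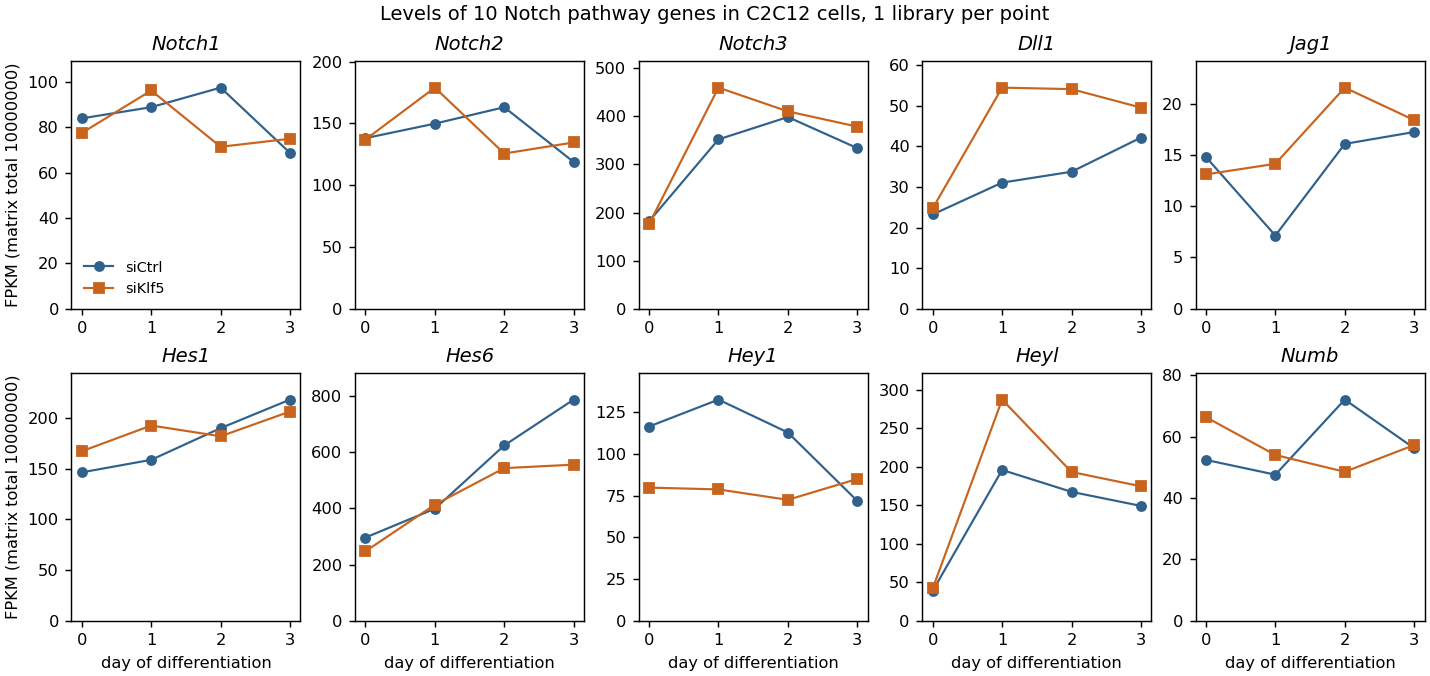
FPKM of each of the 10 genes (vertical axis, starting at 0 and scaled per gene) against day of differentiation, with circles for siCtrl and squares for siKlf5 and 1 library per point. Heyl rises from 38.9 and 41.9 on day 0 to 196 and 287 on day 1, and Hes6 climbs to 788 in siCtrl and 556 in siKlf5 cells on day 3.

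The first comparison asked which of these genes changed as the cells differentiated. 5 of the 10 were higher on day 3 than on day 0 over both siRNAs: Notch3, Dll1, Hes1, Hes6 and Heyl. None was lower. Among all 14312 genes tested, 12.8% were higher and 17.6% were lower by the same rule, a limma adjusted p under 0.05. The median day 3 minus day 0 difference was 0.40 (log2) over the 10 genes and -0.09 over all genes tested. Median-ratio scaling moved the median of all genes by 0.11, and with it 55.5% of the called genes were higher on day 3, against 42.1% with the values as deposited. A test over all 4 days (limma F test) called 3 of the 10, Notch3, Hes6 and Heyl, against 25.1% of all genes. All genes tested include those with means down to 1, whereas the lowest mean of the 10 was 15.3. The shares of all genes, here and for the knockdown below, are thus not matched for level.

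Heyl, a Hes/Hey repressor, changed most. In siCtrl cells its FPKM value was 38.9, 196, 167 and 149 on days 0, 1, 2 and 3, and in siKlf5 cells it was 41.9, 287, 193 and 175. Every later library was thus above both day 0 libraries, and day 1 was the highest day under both siRNAs. From day 0 to day 1 Heyl rose 5.03-fold in siCtrl and 6.84-fold in siKlf5 cells. By day 3 it had come down from its day 1 level by 1.31-fold in siCtrl and 1.64-fold in siKlf5 cells, a step that was not tested. The day 1 minus day 0 difference over both siRNAs was 2.55 ± 0.15 (log2, SE, limma adjusted p = 5.4e-05), and the day 3 minus day 0 difference was 2.00 ± 0.15 (limma adjusted p = 7.3e-05), or 2.09 above the median of all genes.

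Hes6, the family member that antagonises Hes1, rose later and more steadily. Its FPKM value was 296, 399, 625 and 788 in siCtrl cells on days 0, 1, 2 and 3, and 247, 414, 544 and 556 in siKlf5 cells. It increased at each step in both courses, whereas Heyl peaked on day 1. The day 3 minus day 0 difference was 1.29 ± 0.14 (log2, SE, limma adjusted p = 4.0e-04), a 2.44-fold rise, or 1.38 above the median of all genes. Hes6 was the most densely read of the 10 genes, with up to 2.10 reads per base of exon, and the authors kept at most 3 reads per position. Whether this limit lowered its highest values was not tested.

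Of the receptors, Notch3 rose and the other two did not pass the test. The FPKM value of Notch3 was 182, 352, 399 and 334 in siCtrl cells on days 0, 1, 2 and 3, and 176, 460, 410 and 379 in siKlf5 cells. The lowest later library, 334, was far above the higher day 0 library, 182. The difference was 1.17 ± 0.13 on day 1 (log2, SE, limma adjusted p = 0.0011) and 0.99 ± 0.13 on day 3 (limma adjusted p = 9.7e-04), which is 1.08 above the median of all genes. Without siKlf5 day 0 the F test of Notch3 had an adjusted p of 0.075 and that of Hes6 0.080, and without siCtrl day 0 that of Hes6 was 0.075, while the day 3 calls of Notch3, Hes6 and Heyl were kept with each of the 8 libraries left out in turn.
Notch1 was between 68.7 and 97.6 in the 8 libraries, and Notch2 between 119 and 179. Their day 3 minus day 0 differences were -0.17 ± 0.19 and -0.12 ± 0.17 (log2, SE), with limma adjusted p of 0.55 and 0.64. Notch3 accordingly took a larger share of the summed FPKM of the 3 receptors, from 45.0% (siCtrl) and 45.1% (siKlf5) on day 0 to 64.0% and 64.4% on day 3, while Notch1 went from 20.8% and 19.8% to 13.2% and 12.7%. The 3 receptors are similar in sequence, and how reads shared between them were assigned is not given in the sources used here.

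**Figure D2:**
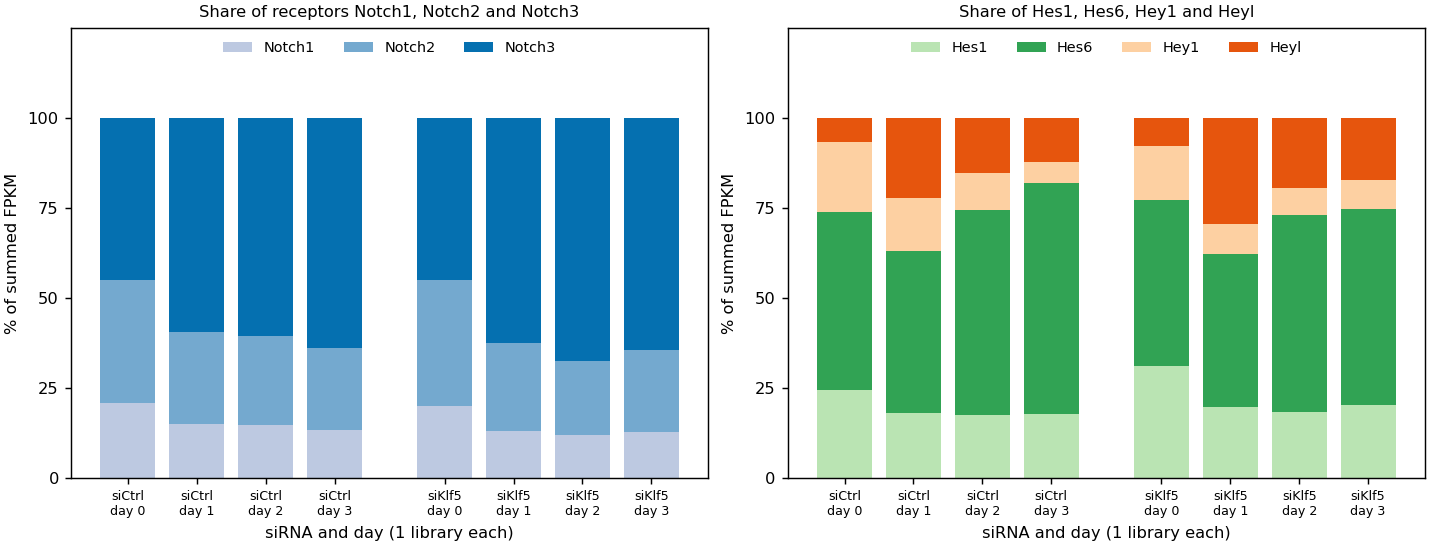
Share of each gene in the summed FPKM (vertical axis, %) of the 3 receptors (left) and of Hes1, Hes6, Hey1 and Heyl (right), with 1 stacked bar per siRNA and day. The share of Notch3 grows from 45.0% and 45.1% on day 0 to 64.0% and 64.4% on day 3, and that of Heyl is highest on day 1, at 22.1% in siCtrl and 29.5% in siKlf5 cells.

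Dll1, a ligand that myoblasts present to their neighbours, had FPKM values of 23.2, 31.1, 33.7 and 42.1 in siCtrl cells and 24.7, 54.5, 54.1 and 49.5 in siKlf5 cells on days 0, 1, 2 and 3. All 6 later libraries were above both day 0 libraries. The day 3 minus day 0 difference was 0.93 ± 0.28 (log2, SE, limma adjusted p = 0.039). Hes1, the best known direct Notch target, had values of 146, 159, 190 and 218 in siCtrl and 167, 193, 182 and 206 in siKlf5 cells. Its 2 day 3 libraries were the highest of the 8, but its day 0 and later libraries overlapped, and the difference was 0.44 ± 0.13 (log2, SE, limma adjusted p = 0.042). Both calls were fragile. Each was lost when any 1 of the 6 libraries of days 0, 2 and 3 was left out, with adjusted p then between 0.085 and 0.24 for Dll1 and between 0.080 and 0.24 for Hes1.

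Jag1, Hey1 and Numb did not pass the test of days 0 and 3. Jag1, the second ligand, was between 7.14 (siCtrl, day 1, on 50 reads) and 21.6 (siKlf5, day 2), with a day 3 minus day 0 difference of 0.35 ± 0.45 (log2, SE, limma adjusted p = 0.60). Hey1, a Notch target and repressor, had values of 117, 133, 113 and 71.9 in siCtrl cells and 79.9, 78.8, 72.6 and 85.1 in siKlf5 cells. Its siCtrl value thus stood lower on day 3 than on days 0, 1 and 2, whereas its siKlf5 values stayed within a narrow band. The difference over both siRNAs was -0.30 ± 0.24 (limma adjusted p = 0.39), and it was 0.14 without siCtrl day 3. Numb was between 47.6 and 72.1 in all 8 libraries, with a difference of -0.06 ± 0.25 (limma adjusted p = 0.90). The table lists Numb by NR_073563, a non-coding accession of this protein-coding gene, and gives 1 value per gene, so the splice forms of Numb could not be told apart. Since RNA was taken from whole cultures, fewer cells of a type and less RNA per cell cannot be told apart for any of these genes.

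**Figure D3:**
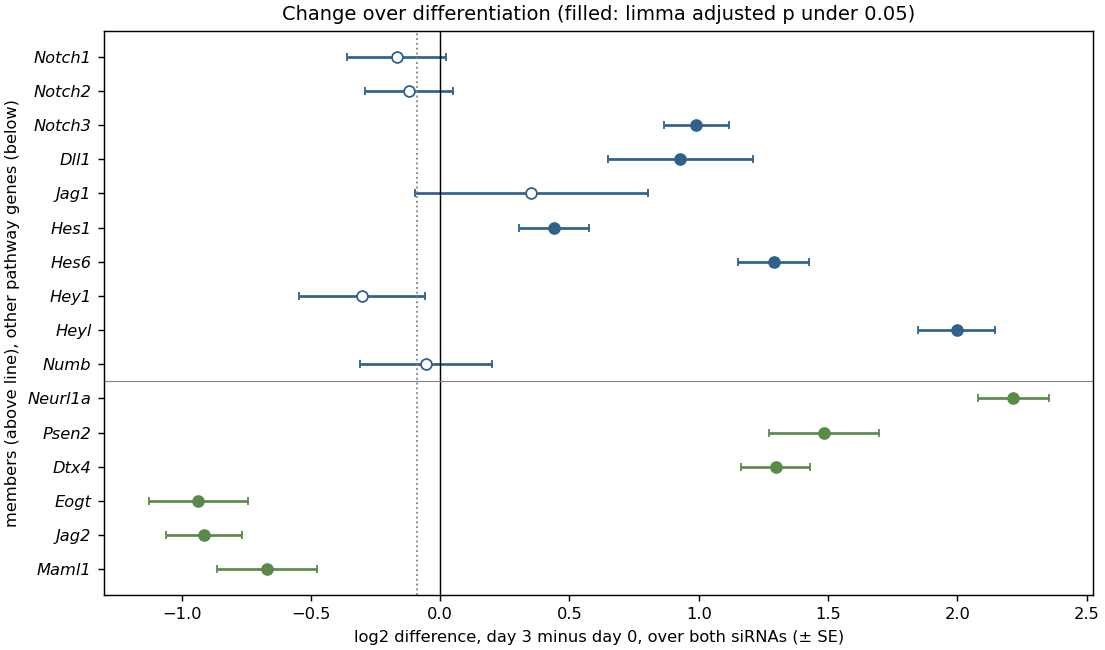
Day 3 minus day 0 difference over both siRNAs (horizontal axis, log2, with SE) for the 10 genes (above the line) and for the other pathway genes with the largest changes (below), with filled points for a limma adjusted p under 0.05 and a dotted line at the median of all genes tested, -0.09. Heyl, at 2.00, and Neurl1a, at 2.22, lie farthest to the right, and Eogt, at -0.94, farthest to the left.

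The second comparison asked whether Klf5 knockdown changed these genes. Over the 4 days none of the 10 passed an adjusted p of 0.05 in limma, against 0.0629% of all genes tested, that is 9 of 14312. At an unadjusted p under 0.05 there were 3 of the 10, Hes6, Hey1 and Heyl, against 9.6% of all genes. This count was not stable: without limma's trend Dll1 alone passed, and each of Hes6, Hey1 and Heyl was lost with 6 of the 8 libraries left out in turn. The median siKlf5 minus siCtrl difference was 0.05 (log2) over the 10 genes and 0.01 over all genes. The largest differences were 0.45 for Dll1 (95% interval -0.005 to 0.91) and -0.42 for Hey1 (95% interval -0.82 to -0.02). For Heyl the difference was 0.27 (95% interval 0.03 to 0.52), with a limma adjusted p of 0.47, and for Hes6 it was -0.23 (95% interval -0.45 to -0.005), with 0.51. The adjusted p was 0.49 for Hey1 and 0.52 for Dll1. For Notch3 the interval ran from -0.07 to 0.35, for Hes1 from -0.14 to 0.30, for Notch2 from -0.27 to 0.29, for Notch1 from -0.39 to 0.23, for Numb from -0.42 to 0.41 and for Jag1 from -0.41 to 1.06. The test had little power on simulated counts for this comparison. It called 20% of 100 genes changed 2-fold (log2 1.0) and 5% of 100 changed 1.5-fold, among 14268 genes. The changed genes were drawn from those with a mean of at least 10, and the spread between libraries was set by hand. Power for the 10 genes themselves was thus not estimated, and the lack of a call does not show that they were unaffected. Dll1 and Heyl, picked out by their signs, were higher in siKlf5 cells on 4 of 4 days. An exact two-sided sign-flip permutation test gives p = 0.125 for this, the smallest that 4 pairs allow. That test therefore cannot reach 0.05 here. The share of all genes with the same sign on 4 days was not computed, so no conclusion is drawn.

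Single days were described by their ratios, with 95% exact intervals that cover counting error only and were computed on reads divided by 6, since reads came in clumps. On day 0 none of the 10 genes was past 1.5-fold between siKlf5 and siCtrl, against 20.4% of all genes. On day 1 there were 3 (Dll1, Jag1 and Hey1) against 27.4%, on day 2 there were 2 (Dll1 and Hey1) against 20.7%, and on day 3 none against 23.3%. The shares of the 10 genes past 1.5-fold were thus near or below those of all genes on every day. All genes here include those with means down to 1, whereas the lowest mean of the 10 was 15.3, so the shares are not matched for level.

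Hey1 was lower in siKlf5 cells on days 0, 1 and 2 and not on day 3. The log2 ratios were -0.54 (95% interval -1.07 to -0.03), -0.75 (-1.37 to -0.15) and -0.64 (-1.13 to -0.17) on days 0, 1 and 2, and 0.24 (-0.32 to 0.81) on day 3, on between 231 and 834 reads. On day 3 the siCtrl value, 71.9, had come down to the siKlf5 values of the earlier days, which were between 72.6 and 79.9. The slope of the Hey1 difference over the days was 0.25 ± 0.13 log2 units per day (SE, unadjusted p = 0.10 by limma), the largest of the 10 in size. It did not pass the test (limma adjusted p = 1.0), and the slope passed it in 0.0% of the 14312 genes. An unadjusted p under 0.05 was seen in 4.85% of them and in none of the 10.

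Dll1 stood higher in siKlf5 cells by 1.75-fold on day 1 (log2 ratio 0.81, 95% interval 0.04 to 1.62, 136 reads in siCtrl and 248 in siKlf5) and by 1.60-fold on day 2 (0.68, 0.15 to 1.21), and by less on days 0 (0.09) and 3 (0.23). Jag1, the other ligand, was at 7.14 in siCtrl and 14.1 in siKlf5 cells on day 1, a log2 ratio of 0.98 on 50 and 103 reads. Its interval was -0.29 to 2.38 on reads divided by 6 and 0.485 to 1.503 on single reads, so that it includes 0 only on the first. Heyl stood higher by 0.55 on day 1 (95% interval 0.28 to 0.82). Notch3 stood higher by 0.38 on the same day (0.23 to 0.54) and by 0.18 on day 3 (0.05 to 0.32). Day 1 was thus the day on which Dll1, Jag1, Notch3 and Heyl all had their largest ratio in favour of siKlf5, and the median log2 ratio of the 10 genes was 0.27, beside 0.03 for all genes. The day 1 libraries are also the shallowest pair, with 7850497 and 8119452 reads, and whether depth had a part was not tested.

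Hes6 differed most at the end of the course. The log2 ratios of days 0, 1 and 2, which were -0.26, 0.05 and -0.20, have intervals that include 0, whereas that of day 3 was -0.50 (95% interval -0.75 to -0.26), where siCtrl cells had 788 and siKlf5 cells 556. On day 2, Notch1, Notch2 and Numb had log2 ratios of -0.45 (95% interval -0.68 to -0.22), -0.38 (-0.54 to -0.21) and -0.57 (-1.04 to -0.11). Their ratios had other signs on at least 1 other day. On day 1 that of Notch2 was 0.26 (0.05 to 0.47), so its intervals excluded 0 in opposite directions on days 1 and 2. Each of the 3 had its highest siCtrl value on day 2, from the deepest library. Without that library, which takes day 2 out of the comparison of the siRNAs, the difference over the days was 0.04 for Notch1, 0.14 for Notch2 and 0.18 for Numb. Hes1 stayed between -0.08 and 0.28 on the 4 days, with intervals that all include 0.

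**Figure D4:**
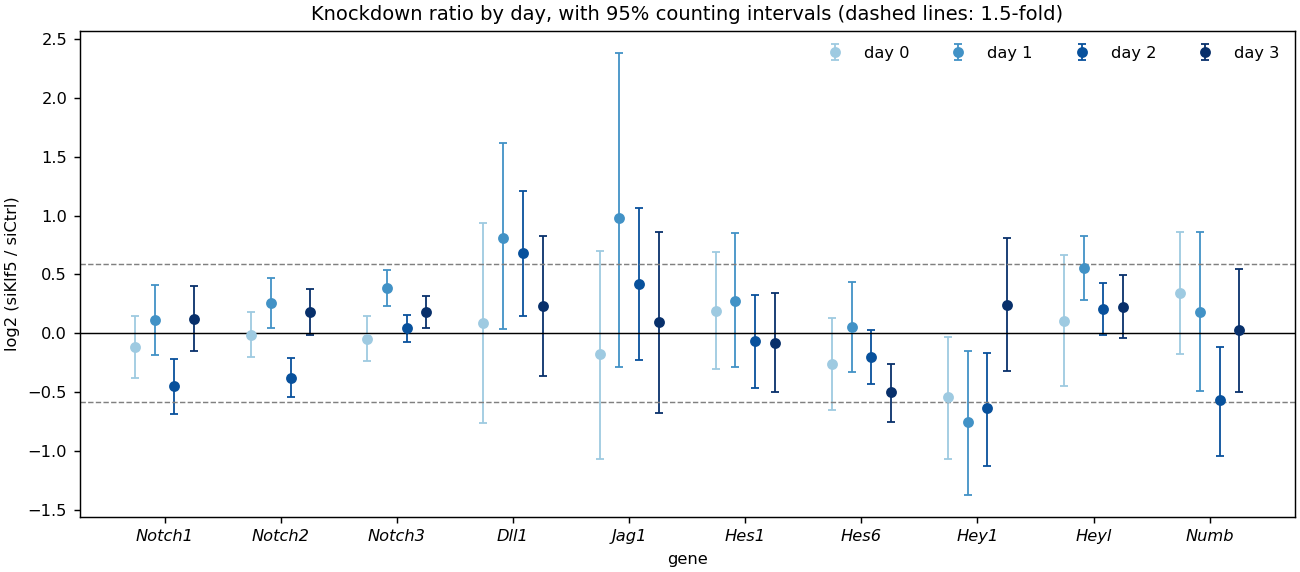
Log2 ratio of siKlf5 to siCtrl (vertical axis) for each gene on days 0 to 3, with 95% intervals for counting error and dashed lines at 1.5-fold. Hey1 lies at -0.54, -0.75 and -0.64 on days 0, 1 and 2 and at 0.24 on day 3, and Hes6 reaches its lowest ratio, -0.50, on day 3.

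The other genes of the pathway were taken from a list of 58, of which 48 were expressed. The 10 below the filter were Notch4, Dll3, Dll4, Dlk1, Mfng, Dtx1, Hes2, Hes3, Hes5 and Hey2, none with a value above 1.77 in any library, so Dll1, Jag1 and Jag2 were the canonical ligands detected above the filter. On day 3, 9 of the 48 were higher than on day 0, 4 were lower and 35 did not pass, that is 18.8% higher and 8.33% lower, beside 12.8% and 17.6% of all genes. Their median day 3 minus day 0 difference was 0.04, beside -0.09 for all genes. Those that rose included 5 of the 14 expressed genes of ubiquitin transfer and endocytosis, 3 of the 14 nuclear genes and 1 of the 10 genes of proteolytic processing. Neurl1a, a ubiquitin ligase for Notch ligands, rose most, by 2.22 ± 0.14 (log2, SE, limma adjusted p = 2.7e-05), from FPKM values of 114 and 100 to 574 and 429 in siCtrl and siKlf5 cells. Psen2, a catalytic subunit of gamma-secretase, rose by 1.48 ± 0.21 (limma adjusted p = 0.0016), and Dtx4, a Deltex ubiquitin ligase, by 1.30 ± 0.13 (limma adjusted p = 3.4e-04). Eogt, which adds sugar to the EGF repeats of Notch, differed by -0.94 ± 0.19 (limma adjusted p = 0.0082). Jag2, the most abundant ligand with 331 and 328 on day 0, differed by -0.91 ± 0.15 (limma adjusted p = 0.0027), to 180 and 170 on day 3. Maml1, a coactivator that joins Rbpj and Notch on DNA, differed by -0.67 ± 0.19 (limma adjusted p = 0.033). Jag2 thus went down while Dll1 went up, yet its day 3 value was still above the 42.1 and 49.5 of Dll1.

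For the knockdown none of the 48 passed an adjusted p of 0.05 by limma, against 0.0629% of all genes tested. By the same fit 1 of the 48, Kat2b, had an unadjusted p under 0.05, against 9.6% of all genes. The median siKlf5 minus siCtrl difference of the 48 was 0.03. On at least 3 of the 4 days, 3 of the 48 were past 1.5-fold in the same direction, 1 higher in siKlf5 cells (Dtx3l) and 2 lower (Hes7 and Nrarp). The share of all genes that meet this rule was not computed, so the count has no background to be read against. Dtx3l, a ubiquitin ligase of the Deltex family, is the one of these 3 with a mean of at least 10. Dtx3l values were 7.96, 8.89, 24.6 and 10.8 in siCtrl cells and 18.0, 21.7, 17.1 and 24.4 in siKlf5 cells on days 0, 1, 2 and 3, so that day 2 ran the other way, and its difference over the days was 0.77 ± 0.38 (limma adjusted p = 0.57). Hes7, a repressor of the Hes family, and Nrarp, a Notch target that feeds back on the pathway, were low and were named after their values were seen. Hes7 was at 3.71, 3.26, 2.80 and 6.62 in siCtrl cells and at 2.34, 0.0, 1.61 and 3.50 in siKlf5 cells (limma adjusted p = 0.58). Nrarp was at 7.51, 11.2, 4.63 and 5.50 in siCtrl cells and at 4.35, 5.54, 1.40 and 5.21 in siKlf5 cells, with a difference over the days of -0.88 ± 0.51 (limma adjusted p = 0.62).

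The genes most like each of the 10 over the 8 libraries were found by Pearson's r of the log2 values among 11345 genes with a mean of at least 10. These values describe 8 libraries that share their days, and no test was made. The gene most like Heyl was Notch3 (r = 0.99), followed by Synpo (0.98), and those most like Notch3 were Synpo (0.99) and Dtx4 (0.99). Notch1 and Notch2 ran with each other (0.95), beside Efr3a (0.95) and Plekhb1 (0.96) respectively. Those most like Hes6 were Sccpdh and Csdc2 (both 0.99), like Dll1 Mtch1 and Vdr (both 0.98), and like Hes1 Fyco1 (0.96) and Tbc1d16 (0.95). For Jag1 they were 2210015D19Rik (0.97) and Sirt4 (0.97), for Hey1 Dpy19l3 (0.94) and Pafah1b2 (0.93), and for Numb Ep400 and Bcl7a (both 0.94). Among the 10 genes themselves, Dll1 ran with Notch3 (0.86) and Heyl (0.84), and Hes1 with Hes6 (0.81), whereas Hey1 ran against Jag1 (-0.67), Hes1 (-0.64) and Dll1 (-0.60).

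On mm9 the transcripts counted are NM_008714 (Notch1, chromosome 2, 26313422 to 26359342, minus strand), NM_010928 (Notch2, chromosome 3, 97817461 to 97954290, plus), NM_008716 (Notch3, chromosome 17, 32257838 to 32303797, minus), NM_007865 (Dll1, chromosome 17, 15504318 to 15512787, minus) and NM_013822 (Jag1, chromosome 2, 136907187 to 136942256, minus). The Hes and Hey genes are NM_008235 (Hes1, chromosome 16, 30065443 to 30067882, plus), NM_019479 (Hes6, chromosome 1, 93308060 to 93309799, minus), NM_010423 (Hey1, chromosome 3, 8663359 to 8667038, minus) and NM_013905 (Heyl, chromosome 4, 122910799 to 122927113, plus). Numb spans 85134984 to 85262884 on the minus strand of chromosome 12. GENCODE lists all 10 as protein-coding on this build. Apart from Mir6996 within Notch1, no other transcript of the table overlaps their spans.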

How the data were processed

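Poly(A) RNA was sequenced in read pairs. The authors used STAR for alignment (mm9) and HOMER for counting, which took exons of 1 RefSeq transcript per gene, ignored strand and kept no more than 3 reads at a position. The deposited FPKM values were scaled to a matrix total of 10000000 per library. The deposited log2 columns, used in 1 alternative, are logarithms of FPKM after adding 1 and a further number between 0 and 1. 1 log2 column names no day and was not used. The versions used for the RNA libraries are not given in the sources used here.

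Reads were recovered by multiplying FPKM with exon length. In each library 5379 to 6919 low values were tested for being whole, with a tolerance of 0.1, and 100% were. Low counts piled up at 6 (292 to 541 genes per library, against 52 to 104 at 5), so intervals (Clopper-Pearson, 95%) were computed on reads divided by 6. Log2 values used a pseudocount of 0.1, which understates changes of low values.

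Genes with a mean of at least 1 were fitted with limma 3.58.1 in R 4.3.3, with trend, siRNA and day as terms, and Benjamini-Hochberg adjustment over 14312 genes. A second fit added the slope of the siRNA difference over the days. Only the knockdown comparison over the 4 days was tested on simulated data, and the tests of day and of slope were not. Everything else ran in Python 3.11.15, with matplotlib 3.10.9 for plots and scipy 1.17.1 for intervals, on tables read by pandas 2.3.3 (numpy 2.4.6).

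The members and lists were chosen with earlier results of these data known. Of other pathway genes, the rule named those called for the knockdown, those with a mean of at least 10 past 1.5-fold in the same direction on 3 or more days, and the 3 largest called rises and 3 largest called falls to day 3. For likeness it named the 2 genes with the highest r. The alternatives were other pseudocounts, filters, scalings and cutoffs, no trend, no day term, single-read intervals and leaving out each library.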

Additional observations from a re-analysis of the deposited data

How the results depend on the processing

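The day 3 rises of Notch3, Hes6 and Heyl passed the test in all 15 alternatives of that fit, with adjusted p up to 0.041, 0.028 and 0.018. Those of Dll1 and Hes1 did not pass in 7 and 8 of them. No member passed for the knockdown or its slope in any alternative. Without trend, 3 members rose by day 3, 1 passed the F test, and over all genes 1366 were lower on day 3, 935 passed the F test and 0 were called for the knockdown. The knockdown calls over all genes were 15 with a mean of at least 10 and 1 with day left out of the model. With 1 library left out they were 0 to 0, the members higher on day 3 were 3 to 5, those passing the F test were 1 to 3, and over all genes 668 to 1811 were higher and 752 to 2423 lower on day 3 and 485 to 2807 passed the F test, with the lowest counts when a library of day 0 or day 3 was missing. Fewer libraries leave fewer degrees of freedom, and the remaining library of that day is assumed to vary like the others. The deposited log2 columns gave the same member counts past 1.5-fold on days 0, 2 and 3 and could not be used for day 1. With a 2-fold cutoff, 0 members passed on day 1 and 0 on day 2. Intervals on single reads excluded 0 for 25 of the 40 pairs of member and day, against 13. Both kinds of interval cover counting error only. How often they exclude 0 over all genes was not computed, so neither count has a background to be read against. Signs turned only for members that passed no test. With 1 library left out, the knockdown difference was -0.15 to 0.0418 for Notch1, -0.0693 to 0.14 for Notch2 and -0.12 to 0.18 for Numb, and the day 3 difference was -0.75 to 0.14 for Hey1 and -0.29 to 0.17 for Numb. Median-ratio scaling gave day 3 differences of 0.00192 for Notch2 and 0.0672 for Numb, and upper-quartile scaling gave 0.0518 for Numb and a knockdown difference of 0.00686 for Numb. The cause of these changes was not tested. No paired analysis by replicate was possible because each siRNA and day has 1 library; the 2 siRNAs were paired by day in the fit reported. The depth limits Jag1 most, which rests on 50 to 295 reads.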
